A study of Drosophila melanogaster with 8 samples.

Results

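Head RNA of Drosophila melanogaster collected 4 days after valproate feeding had stopped was set against head RNA collected on the last day of that feeding. The quantity compared is, for each gene, the log2 ratio of treated over control RNA on the arrays of day 14 minus that on the arrays of day 10, as fitted by limma with a term for dye orientation. With values on all 8 arrays it equals the difference of the means of the days, and with fewer it can depart from it. A gene was included when the array annotation names it alone and it had a value on 3 or more arrays of each day. This left 2711 of the 6793 named genes on the array, against 5232 with 3 or more values at day 10 and 3172 at day 14. Of the 2711 genes, 1482 had values on all 8 arrays and 1229 on fewer.

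Pentylenetetrazole blocks GABA-A receptor chloride channels and provokes seizures, and sodium valproate is an antiepileptic drug. Valproate is known to raise GABA tone, to act on voltage-gated sodium channels and to inhibit histone deacetylases, and in mammals it interferes with mitochondrial fatty acid oxidation and is oxidised in part by cytochrome P450 enzymes. Genes of energy and lipid metabolism, of drug oxidation and conjugation, of chromatin and of transmission at synapses are therefore described in turn.

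All flies were unmated males of the wild-type strain Oregon-R, 3 to 4 days old when treatment began, and both groups had first eaten pentylenetetrazole for 7 days and then valproate for 3 days. The day 10 group was frozen at that point, and the day 14 group after 4 further days on normal food. Every array paired the treated RNA with RNA of untreated flies that had spent as long on normal food, so a difference between the days is a difference between 2 treated-over-control ratios and not between the treated flies alone. The sample labels state 8 mg/ml pentylenetetrazole and 0.33 mg/ml valproate, whereas the series text states 0.33 and 24 mg/ml. RNA came from pools of heads, the 4 arrays of a day are biological replicates according to the series text, and no group received 1 drug alone.

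The day 10 arrays gave ratios for 13524 to 19905 spots each and the day 14 arrays for 11208 to 14421. Over named genes the ratios had an SD between 0.37 and 0.63 on the arrays of day 10, wider than the 0.26 to 0.33 of day 14. Replicates 3 and 4 of each day carried the dyes the other way round, and their sign was turned so that every value below is treated over control. After turning, arrays of opposite dye orientation ran against each other over the genes at day 10 (correlations of -0.47 to -0.24), while arrays of the same orientation ran together (0.30 to 0.54). At day 14 these correlations were -0.26 to 0.055 and 0.28 to 0.53. The values as deposited shared a pattern over the slide between all 16 pairs of arrays of opposite orientation (0.18 to 0.87 over print-block medians), which is the basis for taking them as not yet turned. Other values lay on the other side. As deposited, arrays of opposite orientation also ran together over the genes at day 10. With swapped arrays unturned, 1053 features had an unadjusted p under 0.05 with limma, against 402 as reported. The share of genes whose arrays of the 2 days did not overlap was then 10.5%, against 3.31%. Which reading holds was not settled. If the deposited values had in fact been turned already, different genes would stand apart, and if the deposited ratio were Cy3 over Cy5, each sign below would be the opposite.

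No gene passed the test of the difference. With limma, 0% of the 6419 features, which comprise the 2711 named genes and 3708 spots without a single gene name, had an adjusted p under 0.05, and the lowest adjusted p was 0.773. An unadjusted p under 0.05 was given to 402 features, or 6.26%, of which 244 were lower at day 14 (3.8%) and 158 higher (2.46%). By chance alone a share of about 0.05 would be given such a p. That split turned with 1 array, to 175 lower and 231 higher without day 10 replicate 2 and to 109 and 116 without day 14 replicate 1. Among the named genes there were 155 such genes (5.72%), 97 of them lower (3.58%) and 58 higher (2.14%). The values that follow are therefore differences that were measured and did not pass, and they are given with the standard error of the limma fit.

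Over all 2711 genes the median difference was -0.036 on the log2 scale, with genes spread from -1.14 to 1.28, and the median standard error was 0.23. The fitted difference was below 0 for 1508 genes (55.6%) and above 0 for 1203 (44.4%). After centring over all spots, the median of these genes was 0.10 on day 10 replicate 2 and between -0.0455 and 0.013 on the other arrays. The median difference was -0.011 without day 10 replicate 2 and -0.016 without day 14 replicate 1. Day 10 and day 14 also differed in how often the arrays lay on 1 side of 0. With 8 values this held for 133 genes (8.97%) at day 10 and 258 (17.4%) at day 14. Of the 1482 genes with 8 values, 92 lay above 0 and 41 below 0 on all 4 arrays of day 10, whereas 99 lay above and 159 below on all 4 arrays of day 14. Arrays of opposite dye orientation ran against each other at day 10 (correlations of -0.47 to -0.24) and less so at day 14 (-0.26 to 0.055). The part of dye orientation in these counts was not tested, nor were the counts tested against chance. In only 5 of the 1482 did all 8 arrays have the same sign.

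A stricter description needs no model: the 4 day 14 values lie wholly to one side of the 4 day 10 values. This held for 49 of the 1482 genes (3.31%), 34 with day 14 below day 10 (2.29%) and 15 with day 14 above (1.01%), so 69.4% of them were lower. With 4 arrays a day such separation also arises by chance, and the count was not tested against it. With fewer values it is found more often. Leaving out 1 array gave shares of 4.3% (without day 14 replicate 1) to 8.86% (without day 10 replicate 3). These are the nearer comparison for genes below with 1 value missing. For genes with 3 values on each day no share was counted. Over the 1482 genes the median difference was itself below 0, at -0.077. Without centring of the arrays there were 16 lower genes and 0 higher ones, and with each print block centred 11 and 10. With swapped arrays left unturned there were 119 lower and 37 higher genes, which shared no gene with the 49. Among the 34 lower genes, 10 were above 0 on every day 10 array and below 0 on every day 14 array, 14 had 1 sign at day 10 only and 10 at day 14 only. The corresponding numbers among the 15 higher genes were 9, 1 and 5, with the signs opposite.

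**Figure D1:**
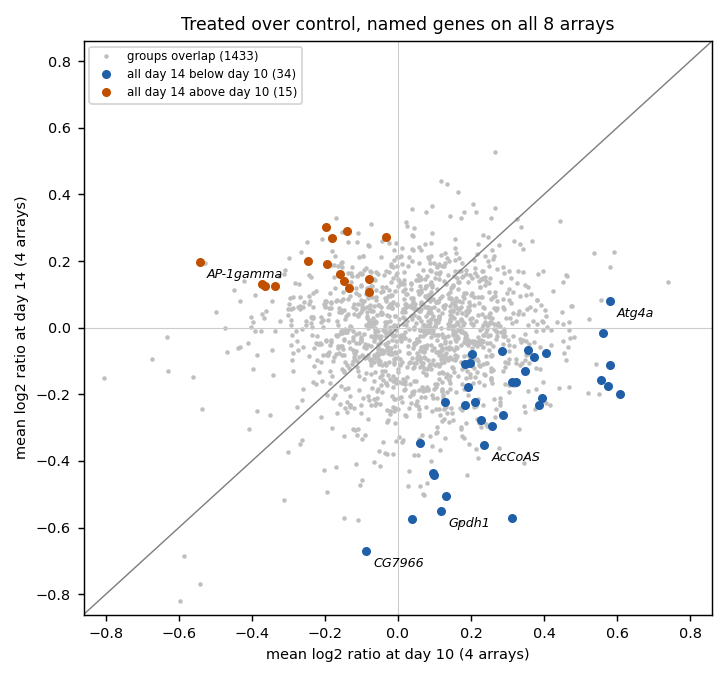
Mean log2 ratio of treated over control at day 10 (x axis) against day 14 (y axis) for the 1482 named genes with values on all 8 arrays, the diagonal marking equal ratios. Most of the 34 blue genes, whose day 14 values all lie below their day 10 values, sit to the right of 0 and below the diagonal, and the 15 orange genes sit to its upper left.

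Of the genes with wholly lower values after the return to normal food, AcCoAS encodes acetyl-CoA synthetase, which makes acetyl-CoA from acetate. Its log2 ratios were 0.25, 0.33, 0.17 and 0.19 on the 4 day 10 arrays and -0.27, -0.38, -0.32 and -0.44 on the 4 day 14 arrays, in the order of the replicates. All treated samples thus lay above their controls at day 10 and below them at day 14, with little spread in either group, and the difference was -0.59 ± 0.17. Leaving out any 1 array kept it within -0.62 to -0.56. With the swapped arrays unturned the sign held, but the difference nearly vanished and the days overlapped. In whole-head RNA, fewer cells of a type and less RNA per cell cannot be told apart, here and for every gene below.

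Gpdh1 encodes the cytosolic glycerol-3-phosphate dehydrogenase, which links glycolysis to glycerolipid synthesis and to the shuttle that carries reducing power to mitochondria. Its ratios were 0.0015, -0.25, 0.40 and 0.33 at day 10 and -0.43, -0.41, -0.65 and -0.71 at day 14. The swapped day 10 arrays lay above 0 and the unswapped ones at or below it, while all day 14 arrays lay lower, and the difference was -0.67 ± 0.20. Rim2, a mitochondrial carrier of pyrimidine nucleotides, had 0.37, 0.62, 0.93 and 0.40 at day 10 against -0.049, -0.37, -0.19 and 0.16 at day 14, a difference of -0.69 ± 0.20. Here the distance came from day 10, where all 4 arrays were high, while the day 14 arrays lay on both sides of 0.

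Atg4a, the protease that processes the autophagy protein Atg8, had ratios of 0.41, 0.68, 0.57 and 0.65 at day 10 and 0.025, 0.15, -0.076 and 0.23 at day 14. Every day 10 array was high and the day 14 arrays were near 0, so that the difference of -0.50 ± 0.18 again comes from the ratios at day 10. The atlastin gene atl, whose product fuses membranes of the endoplasmic reticulum, was at 0.22, 0.28, 1.29 and 0.44 and then at -0.13, -0.28, -0.18 and -0.045. All day 10 arrays lay above all day 14 arrays, and without day 10 replicate 3, the highest, the difference of -0.71 ± 0.22 was -0.49. Gbp2, which encodes a growth-blocking peptide, a cytokine-like signal, had 0.15, -0.26, 0.33 and 0.31 at day 10 and -0.54, -0.39, -0.74 and -0.36 at day 14, with a difference of -0.64 ± 0.20.

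The other 9 lower genes chosen by this rule were bc10 and 8 genes named only by a CG number. The largest distances were those of CG6409 and CG2217. CG6409 was at 0.14, 0.20, 0.70 and 0.22 at day 10 and -0.22, -0.34, -0.80 and -0.92 at day 14, a difference of -0.88 ± 0.22. CG2217 was at 0.85, 0.85, 0.66 and 0.077 and -0.27, -0.17, -0.25 and -0.11, a difference of -0.81 ± 0.20. Both had opposite signs on the arrays of the 2 days. For CG7966 the ratios were -0.11, -0.11, -0.20 and 0.064 at day 10 and -0.74, -0.46, -0.67 and -0.81 at day 14, so the genes differ in which day stood away from the control. CG4914, CG3036, CG3604, CG9360, CG12204 and bc10 had differences from -0.62 (CG3036) to -0.50 (bc10). Of the 15 lower genes named here, 9 would have a difference above 0 if the swapped arrays were left unturned: CG6409, CG3036, Gpdh1, CG7966, atl, Gbp2, CG3604, CG12204 and Atg4a.

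In the opposite direction, AP-1gamma, a subunit of the clathrin adaptor that sorts cargo at the trans-Golgi network and endosomes, had the largest difference of the 15 genes without overlap. Its ratios were -0.62, -1.22, -0.31 and -0.030 at day 10 and 0.22, 0.21, 0.32 and 0.028 at day 14. All day 10 arrays lay below 0 and all day 14 arrays above it, and the difference was 0.74 ± 0.23. Scamp, which encodes a membrane protein of secretory and recycling vesicles, was at -0.17, -0.097, 0.0047 and 0.13 and then at 0.30, 0.19, 0.29 and 0.32, a difference of 0.30 ± 0.17. Its day 10 arrays were spread about 0, and its day 14 arrays were all above them.

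SmydA-9, of an arthropod family of SET and MYND domain proteins, had -0.044, -0.44, -0.17 and -0.14 at day 10 and 0.26, 0.42, 0.34 and 0.20 at day 14 (difference 0.50 ± 0.18). The palmitoyltransferase gene app, which acts in planar polarity and growth through Fat signalling, was at -0.18, -0.15, -0.025 and -0.21 and 0.046, 0.41, 0.28 and 0.43 (difference 0.43 ± 0.18). In both genes the sign was opposite on the 2 days on every array. The TGF-beta ligand gene mav was at -0.32, -0.081, -0.057 and -0.17 at day 10 and 0.022, 0.12, 0.24 and 0.27 at day 14 (difference 0.32 ± 0.17), and svp, a nuclear receptor gene of the COUP-TF type, differed by 0.29 ± 0.19. The tetraspanin gene Tsp66E differed by 0.25 ± 0.17. The ecdysone-induced gene Eig71Eh differed by 0.49 ± 0.21, TMEM216, a gene of the ciliary transition zone, by 0.38 ± 0.20, and the ribosomal-protein-like gene RpL7-like by 0.46 ± 0.19. The other 5 higher genes, CG14450, CG18371, CG11151, CG15706 and CG6329, had differences from 0.19 to 0.50. All 30 genes had an adjusted p of 0.773 to 0.814 with limma. Without turning the swapped arrays, app, CG11151, mav, svp and Tsp66E would lie below 0, while under every other alternative run the 30 genes kept the sign of their difference.

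**Figure D2:**
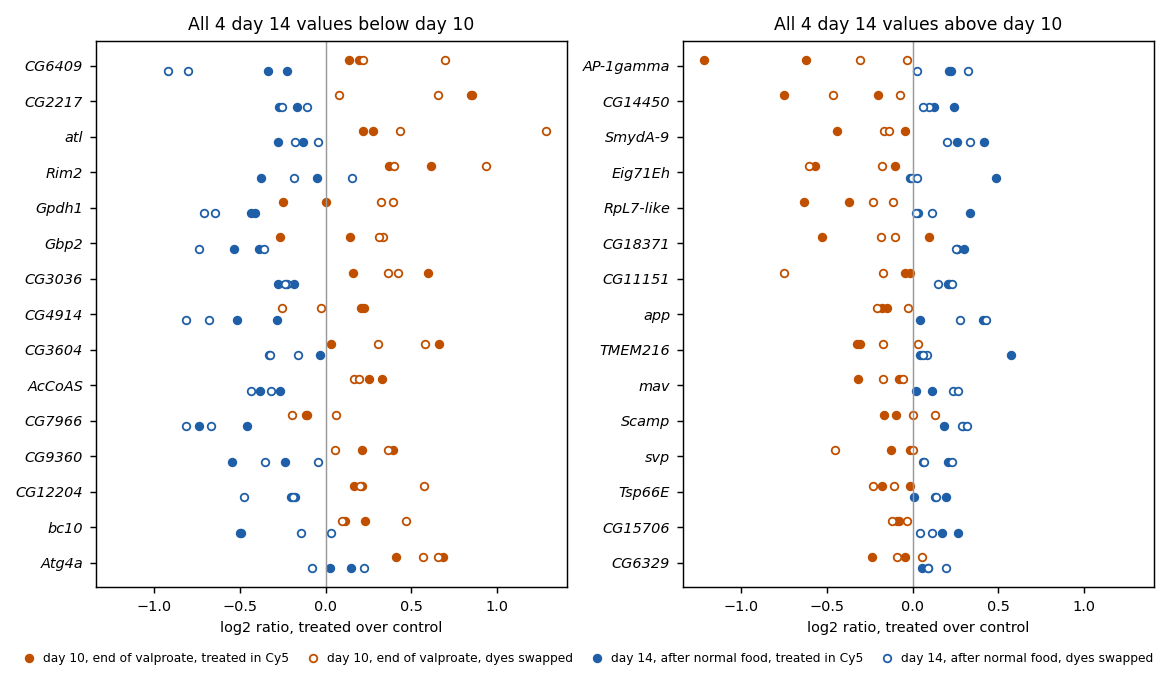
Log2 ratio of treated over control on each array for the 15 genes per direction with the smallest p among those whose groups do not overlap, orange for day 10 and blue for day 14, open circles for arrays with the dyes swapped. The groups are separated by the choice of genes. With swapped arrays left unturned, 9 of the 15 genes on the left (CG6409, atl, Gpdh1, Gbp2, CG3036, CG3604, CG7966, CG12204 and Atg4a) and 5 on the right (CG11151, app, mav, svp and Tsp66E) would lie on the other side.

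Genes were next taken by function, each list being given by its measured members, the number below and above 0, and its median difference beside the values over all genes (55.6% below 0, median -0.036). Genes with 8 values had a lower median, -0.077, which is the nearer comparison for lists made mostly of them. Such lists include the respiratory chain (20 of 24 genes) and glycolysis (7 of 9). Of 30 function lists with 5 or more measured members, 22 had a median below 0 and 8 above 0, between -0.27 and 0.13. In 19 of the lists more than 55.6% of the genes were lower at day 14. The medians of a list on single arrays overlapped between the days in every list described below, and at day 10 they often split by dye orientation. Centring each print block, scaling the arrays or leaving them uncentred turned only the sign of list medians between -0.15 and 0.056. Leaving out 1 array turned the sign of 12 of the 30 medians, which lay between -0.25 and 0.092, and moved 27 of them by over 1.5 times, glycolysis, lipid metabolism and the transcription machinery being the exceptions. An unadjusted p under 0.05 in a list is to be set beside the 5.72% of all named genes, of which 97 of 155 were lower. Single genes turned more often: of 352 further list members and genes without overlap, 121 would change sign with swapped arrays unturned and 182, with differences of -0.32 to 0.57, did so in at least 1 other alternative.

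**Figure D3:**
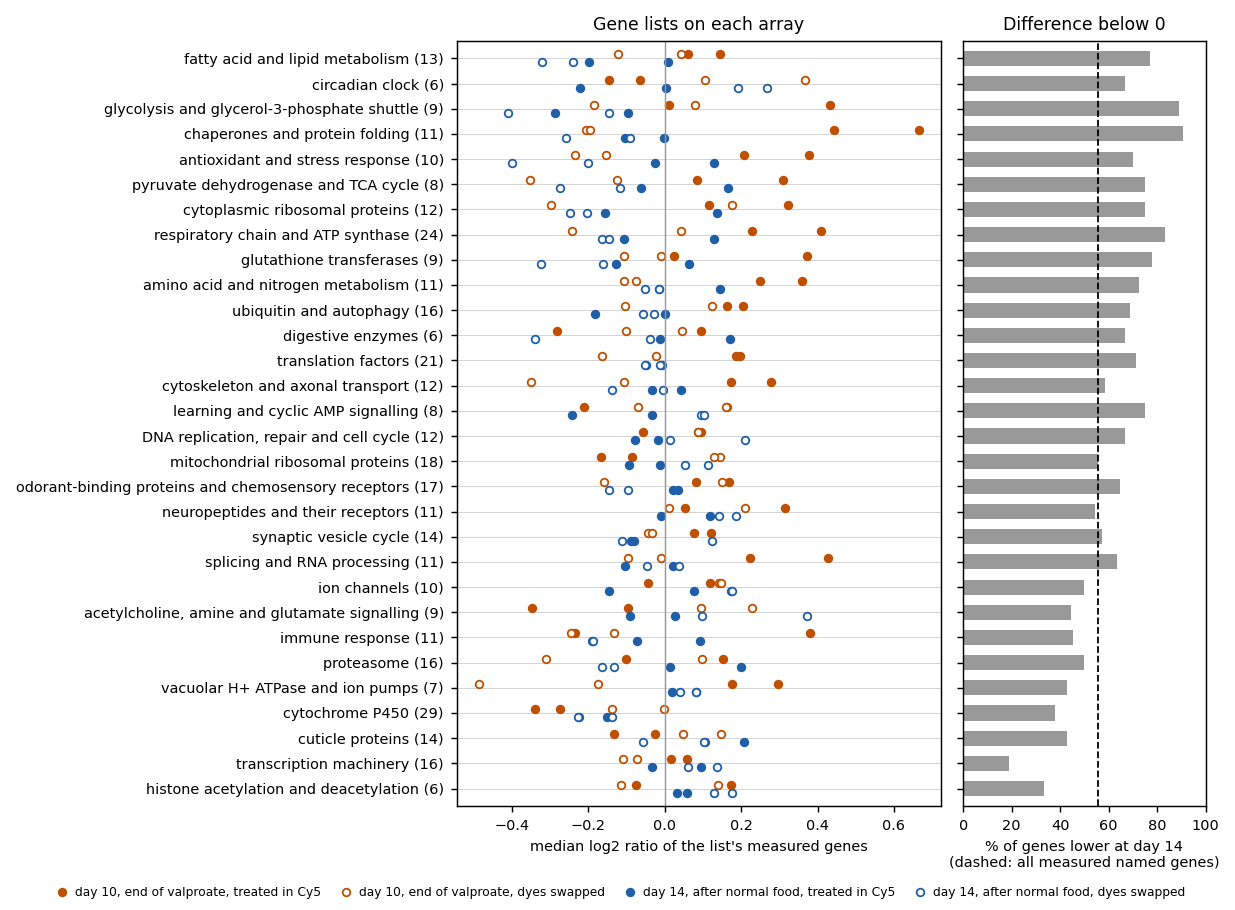
Left, the median log2 ratio of each function list on each array (orange day 10, blue day 14, open circles with the dyes swapped). Right, the percentage of its measured genes with a difference below 0, the dashed line marking the 55.6% over all 2711 genes. Lists are ordered by their median difference, and the number of measured genes is in brackets. With swapped arrays left unturned the medians of the lipid, circadian, digestive enzyme, mitochondrial ribosomal and chemosensory lists would lie above 0 and those of the vacuolar ATPase, P450, immune, transcription and histone acetylation lists below 0. Other centring or scaling turned only medians between -0.15 and 0.056, and leaving out 1 array turned 12 of the 30.

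Glycolysis breaks glucose down to pyruvate, and 8 of the 9 measured genes of glycolysis and the glycerol-3-phosphate shuttle, of 14 named on the array, were lower at day 14, with a median difference of -0.23. The list's median ratio was 0.011, 0.43, -0.19 and 0.080 on the day 10 arrays and -0.29, -0.097, -0.15 and -0.41 on the day 14 arrays. All day 14 medians were thus below 0, and day 10 replicate 3 lay among them. After Gpdh1, the members in order were Gapdh1 (-0.39 ± 0.20), Eno (-0.37 ± 0.23), Pgk (-0.34 ± 0.19), Pgi (-0.23 ± 0.26), Tpi (-0.22 ± 0.17), Ald1 (-0.18 ± 0.23) and Hex-A (-0.12 ± 0.23). Only the hexokinase gene Hex-C lay higher, at 0.34 ± 0.28 on 3 day 10 arrays and 4 of day 14. Gapdh1, the glyceraldehyde-3-phosphate dehydrogenase gene, had 0.15, 0.40, -0.19 and 0.17 at day 10 and -0.40, 0.014, -0.15 and -0.50 at day 14. Its groups overlapped through day 10 replicate 3 and day 14 replicates 2 and 3. Pgk, phosphoglycerate kinase, had 0.26, 0.41, 0.36 and -0.097 and -0.13, -0.17, 0.013 and -0.15, and only day 10 replicate 4 lay within the range of day 14. Of the 9 genes, 1 (Gpdh1) had an unadjusted p under 0.05. The list median stayed below 0 under each alternative, from -0.34 over the members with 8 values to -0.077 with swapped arrays unturned.

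Beyond glycolysis, 6 of 8 measured genes of pyruvate dehydrogenase and the TCA cycle were lower, none with an unadjusted p under 0.05. Their median was -0.20, and between -0.23 without day 14 replicate 4 and -0.10 without day 14 replicate 2. With swapped arrays unturned it would be -0.054. Idh3a, a subunit of isocitrate dehydrogenase, had 0.10, 0.21, 0.93 and -0.019 at day 10 and 0.11, 0.19, -0.30 and -0.38 at day 14, a difference of -0.40 ± 0.25 that would be 0.39 with the swapped arrays unturned. Scsalpha1 (succinyl-CoA synthetase) differed by -0.32 ± 0.24 on 7 arrays (-0.43 between the means), Mdh1 (malate dehydrogenase) by -0.31 ± 0.24 and Gdh (glutamate dehydrogenase) by -0.30 ± 0.29. The day 10 values of Mdh1 were 1.12, 1.01, -1.04 and -0.62, so the unswapped and the swapped arrays of that day lay further apart than the days. Next in order were Men-b (-0.097 ± 0.20) and Ogdh (-0.080 ± 0.18), and above 0 the succinate dehydrogenase genes SdhD and SdhC at 0.054 ± 0.19 and 0.18 ± 0.27.

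The respiratory chain and ATP synthase, which make ATP from the electrons of the TCA cycle, had 24 measured genes of 37, and 20 of them were lower at day 14 (median -0.18). The medians on single arrays were 0.23, 0.41, -0.24 and 0.042 at day 10 and -0.11, 0.13, -0.16 and -0.14 at day 14. Both unswapped day 10 arrays stood above all day 14 arrays, but the swapped day 10 arrays did not, since replicate 3 was the lowest of all 8. COX4, a subunit of cytochrome c oxidase, showed the same split at 1.46, 0.88, -0.39 and -0.31 against 0.12, 0.53, -0.70 and -0.24 (difference -0.48 ± 0.23). ATPsynD, a stalk subunit of ATP synthase, was the 1 member with an unadjusted p under 0.05 and was not split. It had 0.33, 0.40 and 0.20 on 3 day 10 arrays and -0.0035, -0.11, -0.17 and -0.42 at day 14, all day 14 values being below all day 10 values, and differed by -0.45 ± 0.20. The other ATP synthase genes below 0 were ATPsynE (-0.41), ATPsyngamma (-0.32), ATPsynB (-0.21) and ATPsynG (-0.19), while ATPsynbeta, the catalytic subunit, stood at 0.16 ± 0.21. The complex I genes ran from -0.38 (ND-20) to 0.073 (ND-SGDH). This list's median also kept its sign under each alternative, with values of -0.31 without day 10 replicate 3 to -0.072 without day 10 replicate 2.

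**Figure D4:**
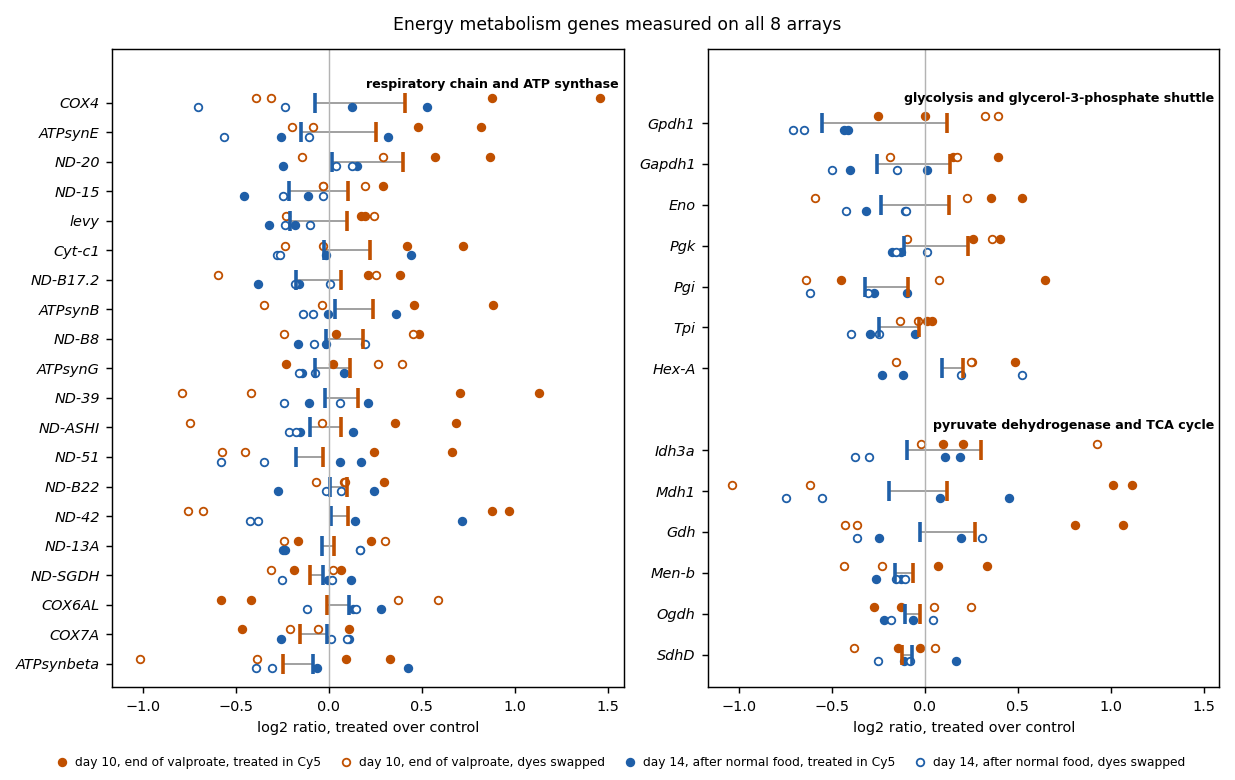
Log2 ratio of treated over control on each array for the measured genes of the respiratory chain and ATP synthase (left), glycolysis and the TCA cycle (right) with values on all 8 arrays, vertical ticks marking the mean of each day and open circles the arrays with the dyes swapped. Most day 14 means lie to the left of the day 10 means, but the 4 arrays of day 10 are spread widely, in many genes with the unswapped and the swapped arrays apart. With swapped arrays left unturned, the differences of ATPsynG, Gpdh1, Idh3a, Ogdh and Tpi would lie above 0 and those of ATPsynbeta and COX7A below 0.

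Fatty acid and lipid metabolism had the lowest median of the function lists, -0.27, with 10 of 13 measured genes lower at day 14, but the median would be 0.080 with swapped arrays unturned. Its medians were 0.060, 0.15, -0.12 and 0.042 on the day 10 arrays and -0.20, 0.0083, -0.32 and -0.24 on the day 14 arrays, and the days overlapped through day 10 replicate 3 and day 14 replicate 2. Next to AcCoAS stood ATPCL, ATP citrate lyase, which supplies acetyl-CoA from citrate, at -0.41 ± 0.23. The lipase genes Lip4, bmm, whose product releases stored triglyceride, and sxe2 followed at -0.37 ± 0.23, -0.36 ± 0.24 and -0.34 ± 0.21. yip2, a thiolase of beta-oxidation, had -0.20, 0.15, 0.27 and 0.013 at day 10 and -0.20, -0.29, -0.30 and -0.24 at day 14 (difference -0.32 ± 0.18), and only day 10 replicate 1 reached the range of day 14. Desat1, the desaturase that makes monounsaturated fatty acids, differed by -0.27 ± 0.18, FASN1, fatty acid synthase, by -0.27 ± 0.24, and bgm and scu by -0.13 ± 0.27 and -0.097 ± 0.27. Desat1, bmm, Lip4 and yip2 would lie above 0, at 0.18, 0.17, 0.080 and 0.098, with swapped arrays unturned. AcCoAS was the 1 lower member with an unadjusted p under 0.05.

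At the other end of the lipid list was mdy, the diacylglycerol acyltransferase that completes triglyceride synthesis, with the highest difference of the list, 0.89 ± 0.26. It had -0.45, -1.45 and -0.77 on 3 day 10 arrays and -0.11, 0.15, -0.033 and 0.025 on the 4 day 14 arrays, so that it was low at day 10 and near 0 at day 14 with no overlap. The lipoprotein gene apolpp stood at 0.26 ± 0.22 (-0.085 with swapped arrays unturned) and the lipogenic transcription factor gene SREBP at 0.060 ± 0.24. Fat body markers, which could bear on this list, had 6 of 10 measured genes lower and a median difference of -0.21, with between -0.32 without day 10 replicate 3 and -0.067 without day 14 replicate 1. Their medians on single arrays were 0.25, -0.016, -0.64 and -0.19 at day 10 and -0.098, 0.18, -0.46 and -0.13 at day 14. FASN1, apolpp and sxe2 belong to both lists, and the part of fat body content in the lipid values was not tested.

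Drug-metabolising genes did not lie on one side of 0. The cytochrome P450 family, enzymes that oxidise drugs, toxins and hormones, had 29 measured genes of 72 named on the array, 11 lower and 18 higher at day 14, with a median of 0.056. The 29 include many with 7 values or fewer, and the median of the 12 with 8 values was -0.093. An unadjusted p under 0.05 was given to 4 of the 29, against 5.72% of all named genes, and these 4 had negative differences, as had 97 of the 155 named genes. Cyp9f2 had 0.73, -0.46 and -0.092 on 3 day 10 arrays and -0.91, -1.01, -0.47 and -0.72 at day 14 (difference -0.86 ± 0.29). Cyp4e2 had 0.22, 0.44, -0.070 and 0.075 at day 10 and -0.63, -0.83 and -0.48 on 3 day 14 arrays (difference -0.78 ± 0.21, which would be 0.013 with swapped arrays unturned). In both genes all day 14 values lay below all day 10 values. Cyp4d2 differed by -0.66 ± 0.23 on 7 arrays (-0.46 between the means) and Cyp4ae1 by -0.56 ± 0.22, with overlapping groups. Cyp6d5 (-0.51 ± 0.27), Cyp28d1 (-0.42 ± 0.24) and Cyp4ac1 (-0.37 ± 0.24) came next.

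Cyp313a1 and Cyp4d21 were below 0 on every array of both days. Cyp313a1 had -0.48, -0.73, -0.74 and -0.43 at day 10 and -0.91, -0.93, -0.94 and -0.50 at day 14, and Cyp4d21 had -0.35, -0.81, -0.71 and -0.29 and -0.27, -1.48, -0.74 and -0.59. Their ranges overlapped widely, with differences of -0.22 ± 0.19 and -0.23 ± 0.26. At the other end Cyp311a1 stood at 0.62 ± 0.37, Cyp4d20 at 0.57 ± 0.56 and Cyp6d2 at 0.44 ± 0.27, each on 3 day 10 arrays.

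Conjugating enzymes, which attach polar groups to drugs and their products, were taken by family. Of 9 measured glutathione transferases, 7 were lower (median -0.18), the lowest being GstD9 at -0.57 ± 0.26 and GstE12 at -0.41 ± 0.21, while GstD1 stood at -0.13 ± 0.18. The family's median lay between -0.31 and -0.15 with 1 array left out, and would be -0.011 with swapped arrays unturned. GstE12 had 0.63, 0.37, -0.57 and -0.086 at day 10 and -0.22, -0.042, -0.79 and -0.25 at day 14, and its unswapped day 10 arrays alone lay above the rest. Of 4 UDP-glycosyltransferases, 3 were higher, with Ugt37E1 at 0.89 ± 0.40 on 3 arrays of each day and Ugt317A1 at 0.22 ± 0.37 (0.37 between the means), whose sign turned without day 10 replicate 1 or without day 14 replicate 1.

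Antioxidant and stress genes were lower in 7 of 10 cases (median -0.21), with between -0.30 without day 10 replicate 3 and -0.11 without day 14 replicate 1. An unadjusted p under 0.05 was given to 2 of the 10, against 5.72% of all named genes. Prx3, the mitochondrial peroxiredoxin, had 1.09, 0.34, -0.090 and -0.021 at day 10 and -0.64, -0.053, -0.45 and -0.070 at day 14 (difference -0.63 ± 0.26). The stress transcription factor crc, the fly ATF4, had 0.51, 0.59, -0.42 and -0.40 and -0.36, -0.39, -0.63 and -0.61 (difference -0.57 ± 0.20). All day 14 arrays of crc lay below 0, and both swapped day 10 arrays lay close to the unswapped arrays of day 14. The peroxidase gene Gtpx stood at -0.58 ± 0.29 (0.65 with swapped arrays unturned), Gclm, a subunit of the enzyme that begins glutathione synthesis, at -0.27 ± 0.22, and Sod2, the mitochondrial superoxide dismutase, at -0.20 ± 0.22.

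**Figure D5:**
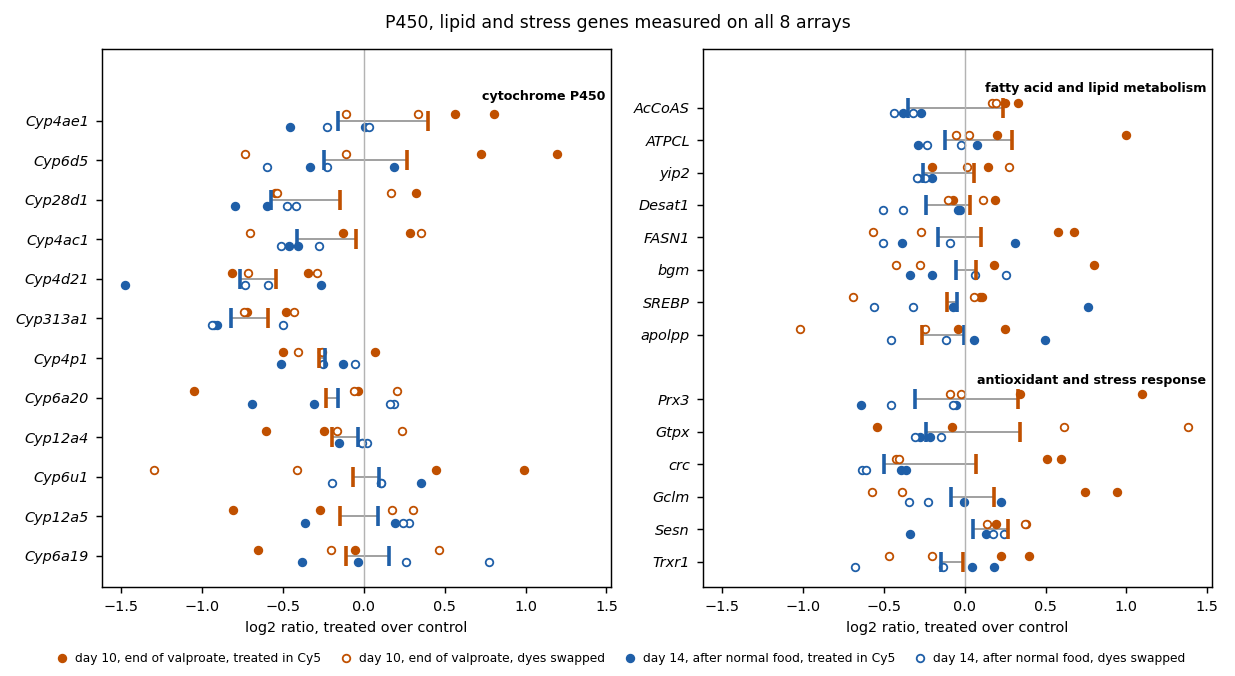
Log2 ratio of treated over control on each array for measured cytochrome P450 genes (left) and lipid and antioxidant genes (right) with values on all 8 arrays, vertical ticks marking the mean of each day and open circles the arrays with the dyes swapped. P450 means lie on both sides of their day 10 values, AcCoAS separates the days on every array, and Cyp313a1 and Cyp4d21 lie below 0 throughout. With swapped arrays left unturned, the differences of Desat1, yip2 and Gtpx would lie above 0 and those of apolpp, Cyp4p1, Cyp6a19, Cyp6a20 and Cyp6u1 below 0.

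Chaperones were lower in 10 of 11 measured genes, the highest share among the 30 lists, with none at an unadjusted p under 0.05. Their median was -0.22, and between -0.31 without day 14 replicate 4 and -0.10 without day 10 replicate 2. The medians on single arrays were 0.44, 0.67, -0.21 and -0.19 at day 10 and -0.10, -0.00067, -0.26 and -0.089 at day 14, so the 2 unswapped day 10 arrays carried the distance and the 2 swapped ones lay among those of day 14. Fkbp59 and Fkbp12, immunophilins with prolyl isomerase domains, differed by -0.42 ± 0.28 and -0.39 ± 0.20, although Fkbp12 would stand at 0.095 with swapped arrays unturned. The DnaJ-type cochaperone genes mrj and DnaJ-1 differed by -0.30 ± 0.20 and -0.26 ± 0.18, and Hsc70-5, the mitochondrial Hsp70, by -0.30 ± 0.22 (0.31 with swapped arrays unturned).

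Cytoplasmic ribosomal proteins had 9 of 12 measured genes lower (median -0.19, and between -0.24 without day 14 replicate 2 and -0.086 without day 10 replicate 4), RpL23 standing at -0.47 ± 0.21 and RpL27 at -0.42 ± 0.22. With swapped arrays unturned the list median would be -0.042 and RpL23 would be at 0.077. Translation factors had 15 of 21 lower (median -0.12, and between -0.20 without day 10 replicate 4 and -0.063 without day 14 replicate 1). The 2 with an unadjusted p under 0.05, against 5.72% of all named genes, were subunits of initiation factor 3, eIF3g1 (-0.49 ± 0.21) and eIF3k (-0.47 ± 0.20). The eIF3k values were 0.31, 0.11, 0.45 and 0.20 at day 10 and -0.36, 0.037 and -0.21 on 3 arrays of day 14, without overlap, and the difference would be 0.019 with swapped arrays unturned. The other measured eIF3 subunits, eIF3b, eIF3i, eIF3l, eIF3a and eIF3f1, ran from -0.32 to -0.022.

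Mitochondrial ribosomal proteins divided nearly evenly, 10 of 18 lower and a median of -0.060 that would be 0.068 with swapped arrays unturned and was between -0.075 without day 14 replicate 1 and -0.0039 without day 10 replicate 3. mRpS29 stood at -0.47 ± 0.20 and mRpS7 at -0.56 ± 0.27 at one end and mRpS11 at 0.32 ± 0.20 at the other. Of the aminoacyl-tRNA synthetases, which charge transfer RNAs, 3 of 4 were lower, with the mitochondrial TrpRS-m at -0.74 ± 0.32 (-0.58 between the means) and AlaRS at -0.28 ± 0.23.

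In protein degradation the proteasome divided evenly, with 8 genes lower and 8 higher and a median of 0.011. Its extremes were Rpn2, a base subunit of the regulatory particle, at -0.77 ± 0.32 in the fit but -0.40 between the means of the days, and Prosbeta5R1, a relative of a catalytic subunit, at 0.73 ± 0.42. Rpn2 rested on 3 arrays of each day, with -0.19, -0.24 and 1.55 at day 10, so that its last array alone was high, and it would be at 0.67 with swapped arrays unturned. Ubiquitin and autophagy genes had 11 of 16 lower (median -0.16, and between -0.24 without day 10 replicate 4 and -0.015 without day 14 replicate 1). Beside Atg4a these included Atg101 (-0.38 ± 0.25), Atg18a (-0.33 ± 0.28) and Atg7 (-0.30 ± 0.25, and 0.34 with swapped arrays unturned), whereas Atg4b, the second Atg8 protease, stood at 0.34 ± 0.20 and would be at -0.073 with swapped arrays unturned.

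Among genes of RNA processing, 7 of 11 were lower and the median was -0.020, with between -0.12 without day 10 replicate 3 and 0.037 without day 10 replicate 2. The 2 with an unadjusted p under 0.05, against 5.72% of all named genes, had no overlap between the days. Of all named genes with 8 values, 3.31% had none. SmD2, a core protein of spliceosomal small nuclear ribonucleoproteins, had 0.74, 0.22, 0.30 and 0.36 at day 10 and 0.036, -0.28, 0.036 and -0.097 at day 14 (difference -0.48 ± 0.19). l(1)10Bb had 1.81, 0.41, 0.12 and -0.036 and -0.40, -0.10, -0.11 and -0.080 (difference -0.75 ± 0.32), with day 10 replicate 1 far above its other arrays. SmD1, another core protein, stood at 0.32 ± 0.19.

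The general transcription machinery was the list with the smallest share of lower genes, 3 of 16, and a median of 0.11. That median was 0.014 over the members with 8 values and -0.12 with swapped arrays unturned. MED30, a Mediator subunit, stood at 0.61 ± 0.29, TfIIA-L at 0.34 ± 0.28 (-0.27 with swapped arrays unturned) and Taf10 at 0.24 ± 0.26, while MED4 stood at -0.45 ± 0.20. The 1 member with an unadjusted p under 0.05 was MED4, which lay lower. The list's medians were 0.017, 0.058, -0.11 and -0.071 at day 10 and 0.095, -0.033, 0.060 and 0.14 at day 14, overlapping through day 14 replicate 2.

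Valproate inhibits histone deacetylases, and of the genes of histone acetylation and deacetylation 6 of 15 named on the array were measured, 4 of them higher (median 0.13, -0.062 with swapped arrays unturned, and between 0.079 without day 10 replicate 1 and 0.19 without day 14 replicate 1). The acetyltransferase gene Elp3, of the Elongator complex, stood at 0.41 ± 0.27, MTA1-like, of the NuRD deacetylase complex, at 0.31 ± 0.22, the corepressor gene Smr at 0.16 ± 0.19 and the NAD-dependent deacetylase gene Sirt1 at 0.10 ± 0.20. The acetyltransferase gene Tip60 was at -0.41 ± 0.29 on 4 and 3 arrays. No member had an unadjusted p under 0.05.

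For the GABA system, which both drugs act on, 2 of 5 named genes were measured. Gad1, glutamate decarboxylase, which makes GABA, had 0.53, 0.38, -0.18 and -0.16 at day 10 and -0.079, 0.034, 0.075 and 0.079 at day 14 (difference -0.11 ± 0.20). Its unswapped day 10 arrays were high, its swapped ones low, and its day 14 arrays near 0. Lcch3, a GABA-gated channel subunit, had 1.22, 0.57, -0.039 and -0.81 and -0.39, 0.11, 0.071 and 0.13 (difference -0.26 ± 0.33). The sign of the Lcch3 difference turned without day 10 replicate 1 or without day 14 replicate 1.

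Ion channel genes were even, with 5 lower and 5 higher, and their median was between -0.053 without day 14 replicate 3 and 0.022 without day 14 replicate 4. The chloride channel gene ClC-b had -0.92, -0.48, 0.043 and -0.54 at day 10 and 0.23, -0.018, -0.031 and -0.18 at day 14 (difference 0.47 ± 0.23), its groups overlapping through day 10 replicate 3. The heat-activated TRP channel gene pyx stood at -0.43 ± 0.19, the 1 member with an unadjusted p under 0.05. Next in order were Teh1 (-0.27 ± 0.31), Elk (-0.23 ± 0.25) and ClC-c (-0.23 ± 0.20). The potassium channel genes Sh and Shab stood at -0.068 ± 0.18 and 0.051 ± 0.21 (0.20 between the means for Shab), and the calcium channel subunit genes stj and Ca-beta at 0.23 ± 0.19 and 0.16 ± 0.22.

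Transmitter genes outside the GABA system divided 4 lower to 5 higher. Eaat2, an excitatory amino acid transporter, had 0.17, 0.31 and 0.20 on 3 day 10 arrays and -0.35, -0.34, -0.030 and 0.035 at day 14, without overlap (difference -0.43 ± 0.20). The serotonin receptor genes 5-HT2A and 5-HT1A stood at 0.49 ± 0.24 and 0.30 ± 0.19, although 5-HT2A would be at -0.31 with swapped arrays unturned. Ace, acetylcholinesterase, stood at 0.23 ± 0.19 and the nicotinic receptor subunit nAChRbeta1 at 0.0013 ± 0.22.

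The synaptic vesicle list had 8 of 14 genes lower and a median of -0.041, which was between -0.11 without day 14 replicate 3 and -0.0090 without day 14 replicate 1. nSyb, the neuronal synaptobrevin, had 1.21, 0.75, -0.57 and -0.43 at day 10 and 0.12, 0.25, -0.34 and -0.45 at day 14 (difference -0.35 ± 0.23), the unswapped arrays of both days lying above 0 and the swapped ones below it. Clc, the clathrin light chain, was less spread, with 0.076, 0.20, 0.19 and 0.27 and -0.19, -0.15, 0.12 and -0.25 (difference -0.30 ± 0.18), and only day 14 replicate 3 reached the day 10 range. EndoA, an endophilin of vesicle endocytosis, stood at 0.39 ± 0.29, and unc-13, a priming factor, at 0.20 ± 0.21.

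Neuropeptide and clock genes held both directions. The SIFamide receptor gene SIFaR had -0.068, -0.26 and -0.083 on 3 day 10 arrays and 0.49, 0.35 and 0.21 on 3 day 14 arrays, all higher (difference 0.49 ± 0.22). Pdfr, the receptor of the clock peptide PDF, stood at 0.30 ± 0.18 and Pdf itself at -0.32 ± 0.20, with the insulin-like peptide gene Ilp2 at -0.33 ± 0.25. The blue-light receptor gene cry had -0.30, -0.15, 0.11 and -0.088 at day 10 and -0.46, -0.20, -0.79 and -0.86 at day 14 (difference -0.47 ± 0.21, which would be 0.37 with swapped arrays unturned). The groups overlapped through day 10 replicate 1 and day 14 replicate 2. Pdp1, an activator of the clock gene Clk, had -0.74, -0.94 and 0.10 on 3 day 10 arrays and 1.68, -0.28, 0.39 and 0.37 at day 14 (difference 1.04 ± 0.43), its day 14 replicate 1 standing far above the others. Of 6 measured clock genes, cry and Pdp1 each had an unadjusted p under 0.05, against 5.72% of all named genes. The clock list's median of -0.25 was between -0.32 without day 14 replicate 2 and 0.022 without day 10 replicate 4, and per stood at -0.18 ± 0.32.

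In the list of learning and cyclic AMP signalling, 6 of 8 genes were lower (median -0.11, and between -0.14 without day 14 replicate 3 and -0.046 without day 14 replicate 2), the lowest being S6kII, a ribosomal S6 kinase, at -0.49 ± 0.42 and Pka-R1, a regulatory subunit of protein kinase A, at -0.42 ± 0.24. With swapped arrays unturned the median of that list would be -0.011. Cytoskeletal and axonal transport genes had 7 of 12 lower (median -0.12, between -0.15 without day 10 replicate 3 and 0.0094 without day 14 replicate 1, and -0.016 with print blocks centred), with the spectrin-binding ankyrin gene Ank at -0.34 ± 0.24 and Mlc-c, a myosin light chain gene, at -0.25 ± 0.19. No member of these 2 lists had an unadjusted p under 0.05.

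Sugar handling outside glycolysis was measured in 4 genes, 3 of them higher. The sugar transporter gene sut2 had -0.046, -0.32 and -0.998 on 3 day 10 arrays and 0.11, 0.44, -0.13 and 0.26 at day 14, low at day 10 and mostly above 0 at day 14 with an overlap through day 14 replicate 3 (difference 0.70 ± 0.23, and -0.15 with swapped arrays unturned). Taldo, the transaldolase of the pentose phosphate pathway, stood at -0.48 ± 0.25, and Treh, trehalase, at 0.072 ± 0.23. In amino acid metabolism 8 of 11 genes were lower (median -0.17, and between -0.22 without day 10 replicate 3 and -0.076 without day 14 replicate 1), including Hpd, of tyrosine breakdown, at -0.43 ± 0.26 and the glutamine synthetase genes Gs1 and Gs2 at -0.32 ± 0.22 and -0.17 ± 0.18.

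The remaining lists had single members at either end. Cuticle proteins divided 6 lower to 8 higher, with a median between -0.055 without day 10 replicate 1 and 0.19 without day 14 replicate 4. The 2 with an unadjusted p under 0.05, against 5.72% of all named genes, lay in opposite directions, Cpr67B at -0.75 ± 0.33 and Cpr67Fa1 at 0.56 ± 0.22. Odorant-binding proteins and chemosensory receptors had 11 of 17 lower, with a median between -0.11 without day 14 replicate 4 and 0.12 without day 10 replicate 3. Obp56e was at -0.40 ± 0.21 and the gustatory receptor gene Gr61a at 0.40 ± 0.22. Immune genes were at a median of 0.0033, and between -0.053 without day 10 replicate 1 and 0.050 without day 10 replicate 2, with the antifungal peptide gene Drs at 0.31 ± 0.23 and Myd88, an adaptor of Toll signalling, at -0.23 ± 0.19. Of the vacuolar ATPase and ion pump genes, 4 of 7 were higher, from -0.12 (nrv1) to 0.29 (Vha100-4).

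Digestive enzymes had 4 of 6 genes lower, with the gut serine protease gene Jon25Biii at 0.91 ± 0.36 on 3 arrays of each day. Their median of -0.15 was 0.022 with print blocks centred and would be 0.086 with swapped arrays unturned. DNA replication and repair genes had 8 of 12 lower, with tefu, the fly ATM kinase, at -0.36 ± 0.23 and Rad23 at -0.31 ± 0.22. The median of that list was -0.096, but 0.053 with print blocks centred and 0.0051 without day 10 replicate 3.

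Markers of the cell types that a head sample could hold showed no list with a clear separation of the days. The ratios carry no level, so the tissue can be checked only by which markers gave values: 13 of 20 photoreceptor and retina markers did in both groups, 10 of 16 of fat body, 6 of 12 of muscle, 2 of 5 of neurons, 4 of 11 of glia, 5 of 14 of gut, 3 of 11 of haemocytes and 1 of 11 of the male reproductive tract. Of all 6793 named genes 2711 did. Neuron and glia markers thus gave values about as often as gut markers and as named genes at large, so their counts tell little about the tissue. Photoreceptor markers divided 6 lower to 7 higher with a median of 0.042, from the eye protein kinase C gene inaC at -0.42 ± 0.29 to the diacylglycerol kinase gene rdgA at 0.35 ± 0.24. Their medians were 0.14, 0.42, -0.43 and -0.088 at day 10 and 0.20, 0.086, -0.074 and -0.17 at day 14.

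The neuron markers measured were nSyb and Gad1, and glia had 3 of 4 lower, with the astrocyte gene alrm at -0.34 ± 0.25. Muscle markers had 4 of 6 lower (median -0.082, between -0.11 without day 10 replicate 3 and 0.018 without day 10 replicate 4, and -0.0090 with print blocks centred), with the actin genes Act88F and Act79B at -0.23 ± 0.24 and -0.15 ± 0.19. Gut markers had 4 of 5 lower (median -0.24, and between -0.32 without day 14 replicate 4 and -0.097 without day 14 replicate 1), with Vajk1 at -0.30 ± 0.25. The haemocyte genes crq and NimC1 stood at -0.13 ± 0.18 and 0.12 ± 0.22, and Mst89B of the male tract at 0.14 ± 0.38 (0.25 between the means). Lsp2, a fat body storage protein, had 1.03, -0.77 and 0.97 on 3 day 10 arrays and differed by -0.73 ± 0.42. The part of these markers in the function lists was not tested.

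A further 10 genes, those with the smallest p of all named genes, were picked after their values were seen and overlap in part with those above (CG2217, CG6409, CG4914 and Cyp4e2). Stt3B, a catalytic subunit of the oligosaccharyltransferase that attaches N-linked glycans, had 1.24, 0.70 and 0.60 on 3 day 10 arrays and -0.20, -0.56 and -0.13 on 3 day 14 arrays, with a difference of -1.14 ± 0.26. It was the lowest of the 2711 differences, and no day 14 value reached the day 10 range. vg, a transcriptional coactivator known from wing development, had -0.69, -0.40 and -0.57 on 3 day 10 arrays and 0.23, 0.13, 0.17 and 0.15 at day 14 (difference 0.73 ± 0.20). salt had -0.78, -0.67 and -0.79 and 0.0025, 0.13 and 0.22 on 3 arrays of each day (difference 0.85 ± 0.23, and -0.12 with swapped arrays unturned), and both lay low at day 10 and slightly above 0 at day 14. The other 3 were CG10283 at -1.10 ± 0.31, CG7800 at -0.84 ± 0.23 and CG9427 at 0.81 ± 0.22.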

How the data were processed

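Head RNA of treated and control flies was hybridised to 2-colour cDNA arrays, 4 per day. The deposited values are log2 ratios, made by the authors from scans in GenePix Pro 6.0 with a ratio-based normalization in Acuity 4.0, after filters on saturation, signal and flags, per the series text. Which channel is on top is not given in the sources used here, and Cy5 over Cy3 was assumed. The depth of an array is not a quantity here, and 4 arrays per day limit the precision.

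Of 27648 spots, 15116 carried 1 gene symbol, 102 several and 12430 none, and 14894 were matched to RefSeq. After 2 values capped at 16.61 had been removed, each array was centred on its median, Dyeswap arrays were turned and spots of 1 gene were averaged. limma 3.58.1 in R 4.3.3 was fitted to 6419 features with 3 or more values per day, with terms for day and dye, and p-values were adjusted by Benjamini-Hochberg. With missing values the fitted difference can depart from that of the means. The procedure was tested on simulated data. The simulated dye effect of a gene was the same on both days, whereas the measured split by orientation was stronger at day 10. The simulated data therefore cannot show how the procedure handles that split. Named genes were up to 15 per direction with the smallest p among genes whose groups did not overlap, and the 2 members with the smallest p in each list. Members of the glycolysis, TCA cycle, lipid and cytochrome P450 lists were also named in order of their difference. Other list members, and the 10 genes with the smallest p, were chosen after their values were seen. The members, the 42 lists (34 of functions and 8 of cell types, 6 genes left out after the data were seen) and the tests were chosen with earlier results of these data known. Alternatives concerned dye terms, replicate block, centring, scaling, weights, moderation, missing values, turning, spots of a gene and left-out arrays.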

Additional observations from a re-analysis of the deposited data

Results flagged for a closer look

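In 120 groups of 4 arrays, for the 30 genes without overlap and the 30 function lists, 9 had a highest or lowest array whose gap to the next exceeded Dixon's critical share of the group's range, and chance gives about 1 in 20. CG6409 stood apart at 0.70 on day 10 replicate 3, and CG12204 at 0.58 on day 10 replicate 3 and at -0.48 on day 14 replicate 3. On day 14 replicate 2, Eig71Eh stood apart at 0.49, CG18371 at 0.30 and TMEM216 at 0.57. The list median of the ion channels stood apart at -0.043 and that of DNA replication and repair at -0.055 on day 10 replicate 1, and that of the synaptic vesicle cycle at 0.13 on day 14 replicate 3.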

How the results depend on the processing

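The number of features past an adjusted p of 0.05 with limma was 0 in all 20 alternatives except without day 10 replicate 4, where 1 unnamed spot passed (adjusted p = 0.0344), so leaving out 1 array gave 0 to 1. The 402 features with an unadjusted p under 0.05 became 252 without a dye term, 591 with a dye term for each day and 577 with arrays scaled to one spread. They became 257 of those with values on all 8 arrays, 1053 with swapped arrays unturned, and 225 (without day 14 replicate 1) to 689 (without day 10 replicate 4) with 1 array left out. With a dye term for each day the lowest adjusted p with limma was 0.0984, and with arrays scaled 0.319, against 0.773 as reported. Of the 257, 197 were lower and 60 higher (76.7% lower), against 60.7% lower among the 402. The majority turned from lower to higher without day 10 replicate 2 (175 lower, 231 higher) and without day 14 replicate 1 (109 and 116). A replicate block gave 351 and no adjusted p under 0.05. Deviations of same-numbered arrays correlated at 0.015, 0.41, 0.41 and -0.0017, and the values of 0.41 were the highest of any arrays compared between the days. These values cannot settle whether the samples were paired, because number and dye orientation are nested. Since no label ties same-numbered arrays, the numbers were not taken to pair the samples.

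The 34 lower and 15 higher genes without overlap became 16 and 0 without centring, 11 and 10 with print blocks centred, 119 and 37 with swapped arrays unturned, and 67 and 33 with every spot on its own. With 1 array left out there were 45 to 102 lower genes, over 1.5 times the number reported without day 10 replicate 1 (58), 3 (102) or 4 (76) and without day 14 replicate 2 (57) or 3 (58), and 20 to 55 higher ones. The 16 genes without centring kept AcCoAS, CG2217, CG3036, CG4914, CG6409 and CG7966 of the named genes, and the print-block genes kept CG12204, CG2217, CG3604, Gbp2, Gpdh1, Scamp, atl and bc10.

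Of 113 named genes, 33 reversed with swapped arrays unturned. To above 0 went CG6409 (0.44), CG3036 (0.0069), Gpdh1 (0.37), CG7966 (0.093), atl (0.26), Gbp2 (0.23), CG3604 (0.080), CG12204 (0.17), Atg4a (0.039), Idh3a (0.39), RpL23 (0.077), eIF3k (0.019), Rpn2 (0.67), Fkbp12 (0.095), Cyp4e2 (0.013), cry (0.37), S6kII (0.12), Lsp2 (0.56), Act79B (0.021), crq (0.070) and Vajk1 (0.22). To below 0 went app (-0.039), CG11151 (-0.20), mav (-0.048), svp (-0.083), Tsp66E (-0.053), sut2 (-0.15), Atg4b (-0.073), VhaAC45 (-0.35), Cpr67Fa1 (-0.14), 5-HT2A (-0.31), Mst89B (-0.49) and salt (-0.12). In other settings 5 genes reversed. With print blocks centred, crq was at 0.077 and Mst89B at -0.0016. Without day 10 replicate 1, Ugt317A1 was at -0.080, Lcch3 at 0.029, NimC1 at -0.027 and Mst89B at -0.15. Without day 14 replicate 1, Ugt317A1 was at -0.41 and Lcch3 at 0.0001. NimC1 was at -0.023 without day 14 replicate 2, and Mst89B at -0.018 without day 10 replicate 3 and at -0.29 without day 14 replicate 3. At the other end of the left-out arrays, Ugt317A1 was at 0.42, Lcch3 at -0.57, NimC1 at 0.26 and Mst89B at 0.65. The cause of these reversals was not tested. The rest of the 113 kept their sign in every setting run. The 113 do not include the other list members given above, many of which turned in some alternative besides that of unturned arrays. Among them were Hex-C, Ald1, Hex-A, Sod2, GstD1, bgm, scu, Cyp4d20, per, Teh1, Sh and Shab.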

Other observations

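The 34 genes with wholly lower day 14 values included several beyond those described, which were chosen here after their values were seen and did not pass the test (adjusted p of 0.773 with limma). colt, the mitochondrial carrier that exchanges carnitine and acylcarnitine, had -0.093, 0.50, -0.0080 and -0.0090 at day 10 and -0.34, -0.17, -1.05 and -0.21 at day 14 (difference -0.54 ± 0.23). Day 10 replicate 2 and day 14 replicate 3 stood away from the other arrays of their day, and the difference would be 0.080 with swapped arrays unturned. Apoltp, the apolipoprotein of the lipid transfer particle, had 0.52, 0.23, 0.10 and -0.075 and -0.12, -0.33, -0.086 and -0.19 (difference -0.37 ± 0.19), its lowest day 10 array lying just above its highest day 14 array. Mtch, a protein of the mitochondrial outer membrane, had 0.12, 0.26, -0.10 and 0.23 and -0.30, -0.26, -0.10 and -0.23 (difference -0.35 ± 0.18), and day 10 replicate 3 and day 14 replicate 3 all but touched. kni, a nuclear-receptor-like gap gene of the embryo, had 0.39, 0.044, 0.28 and 0.52 at day 10 and -0.39, -0.053, -0.18 and -0.026 at day 14 (difference -0.47 ± 0.19, and 0.034 with swapped arrays unturned), with opposite signs on the arrays of each day. Uxs, UDP-xylose synthase, had 0.47, 0.29, 0.061 and 0.022 and -0.48, -0.18, -0.037 and -0.20 (difference -0.44 ± 0.19), again with opposite signs.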
